A study of Mus musculus with 6 samples.

Results

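The Hox genes of the 4 mammalian clusters were examined in mouse prostates with and without the autophagy adaptor p62 in the stroma. The members were all genes of the deposited table whose symbol is Hoxa, Hoxb, Hoxc or Hoxd followed only by a number of the paralog group, from 1 to 13. They were 39 of the 24421 genes in the table, with 11 in the Hoxa cluster, 10 in Hoxb, 9 in Hoxc and 9 in Hoxd. The stromal p62 knockout group (labelled p62FSP1KO) held 3 libraries from mice with floxed p62 alleles and a Cre transgene that the labels name after FSP1 (gene S100a4), a protein of fibroblasts. The control group (p62f/f, labelled wild type) held 3 libraries from mice that carried the floxed alleles. All mice were C57BL/6 and 52 weeks old, and polyadenylated RNA of prostate tissue was sequenced. Whether the libraries are of different animals is not stated in the labels, and the p-values rest on the spread among these libraries alone. FSP1 is also made by some leukocytes, and a whole-prostate library mixes the deleted stroma with epithelium that is not a target of the Cre by design.

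Hox genes encode homeodomain transcription factors that give cells a position along the body axis. Within a cluster the genes lie in the order of the regions they pattern, with low paralog groups expressed toward the head and high groups toward the tail. The prostate grows from the urogenital sinus near the posterior end. In mice, Hoxb13 is needed for secretory differentiation of the ventral prostate, and Hoxa13, Hoxd13 and Hoxa10 for normal growth and branching of prostate lobes. The mouse gland has anterior, dorsal, lateral and ventral lobes with different secretory proteins.

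The clusters also hold microRNA genes, and the miR-196 loci are shown because the reads at one of them were nearly absent from the same library as those of Hoxb9, described below. Mature sequences (RefSeq, GRCm38.p6) are given 5′ to 3′ with the seed, bases 2 to 8, in capitals.
miR-196a-5p, Mir196a-1, chr11:96265187-96265208, plus strand: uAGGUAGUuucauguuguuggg
miR-196b-5p, Mir196b, chr6:52230129-52230150, minus strand: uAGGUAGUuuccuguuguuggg
Both mature microRNAs have the seed AGGUAGU. Mir196a-1 lies between Hoxb13 and Hoxb9, and Hoxb8 is a known target of miR-196 in mouse embryos. Reads of polyadenylated RNA at such a locus come from longer transcripts and are not levels of the mature microRNA.

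Knockout libraries held 14761703, 24186958 and 26910053 counts, and control libraries 20011908, 16052785 and 12826463, so that 1 count was worth 0.0383 to 0.0751 CPM (reads relative to a library total of 1e6, scaled here by TMM factors). Sqstm1, which encodes p62, had 540, 387 and 462 CPM in knockout libraries and 360, 409 and 294 CPM in control libraries (log2 fold change 0.39, adjusted p = 0.355 by edgeR's quasi-likelihood test), so it does not check the labels in whole tissue. Knockout 1 had Spearman correlations across genes of 0.958 and 0.953 to the other knockouts, against 0.986 between these. Control 3 stood further apart, with 0.942 and 0.938 to the other controls, against 0.985 between these. Counts and fold changes that either library moves strongly are given with and without it.

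The tissue markers differed between these libraries too. The 3 anterior, dorsal or lateral-type secretory genes (Tgm4, Pbsn and 9530053A07Rik) summed to 265947, 288421 and 322000 CPM in knockout libraries and to 169410, 234198 and 696 CPM in control libraries. The 5 ventral-type genes (Sbp, Sbpl, Spink1, Abo and Msmb) summed to 93.2, 18.8 and 3.18 CPM in knockout libraries, against 65938, 50017 and 166198 CPM in control libraries. The 5 adipocyte genes summed to 4.35 to 40.1 CPM in knockout libraries, against 25.2, 24.0 and 971 CPM in control libraries. A list of 12 hepatocyte genes, chosen after the values were seen, summed to 842 CPM in knockout 1, against 2.73 and 10.6 CPM in the other knockouts and 1.17 to 11.5 CPM in control libraries. Luminal markers were present in every library, at 3430 to 3833 CPM in knockout and 2151 to 3208 CPM in control libraries over 5 genes, and 0 of these genes was at 0 in any library. Smooth muscle markers, 8 genes, summed to 2869, 4269 and 3503 CPM in knockout libraries, against 1922, 2733 and 1164 CPM in control libraries, with 0 of 8 at 0 in any library. The 8 seminal vesicle genes stayed at or below 3.90 CPM in knockout libraries and 0.634 CPM in control libraries, and all 8 were at 0 in control 3. The part of these tissue differences in the Hox values was not tested. In bulk tissue, fewer cells of a type and less RNA per cell cannot be told apart.

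**Figure D1:**
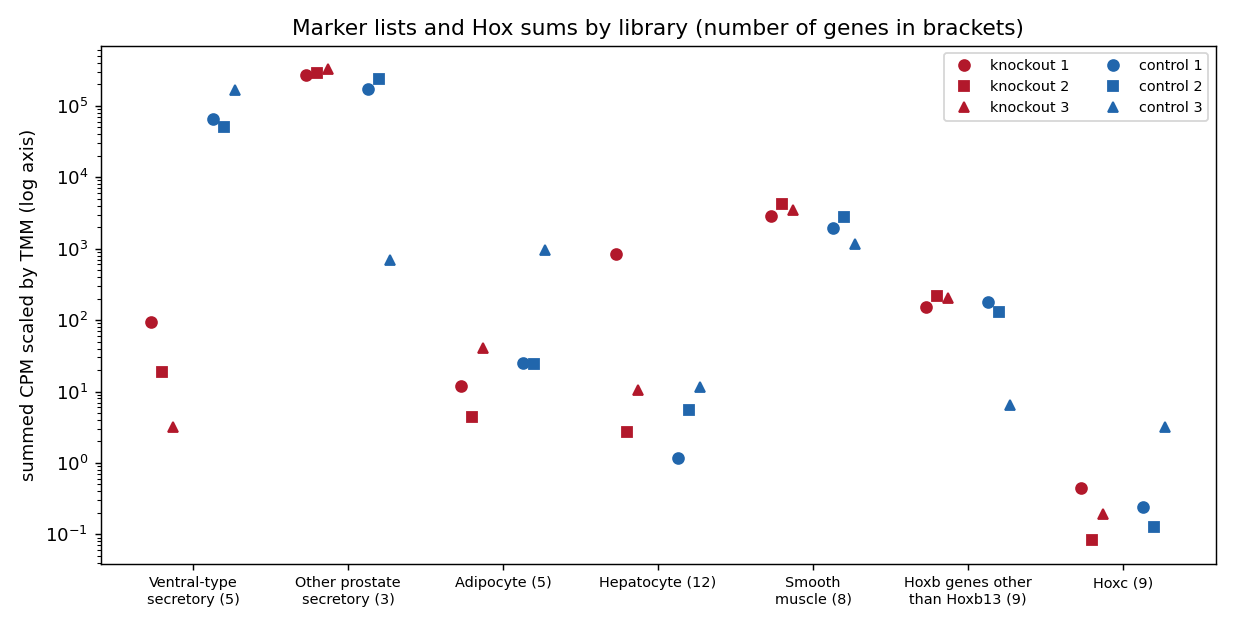
Summed CPM scaled by TMM (log axis) of 5 marker lists and 2 groups of Hox genes in the 3 knockout (red) and 3 control (blue) libraries, 1 symbol per library. Knockout 1 is the high point of the hepatocyte genes, at 842 CPM, and control 3 is the low point of the Hoxb genes other than Hoxb13, at 6.55 CPM, and of the other secretory genes.

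The prostate Hox profile was dominated by Hoxb13. Of 67567 counts on Hox genes over the 6 libraries, 57280 (84.8%) fell on the Hoxb cluster, 6742 (9.98%) on Hoxa, 3479 (5.15%) on Hoxd and 66 (0.0977%) on Hoxc. Per kb of the longest transcript, the level of Hoxb13 ranked first in all 6 libraries. It averaged 132 ± 42.7 CPM per kb in knockout libraries and 196 ± 54.2 CPM per kb in control libraries (SD, n = 3 each). Hoxb9 came next, with mean levels of 53.3 ± 7.99 CPM per kb in knockout libraries and 27 ± 24.5 CPM per kb in control libraries. It ranked second in 5 libraries and 27th in control 3. Hoxa10, Hoxb6, Hoxa9, Hoxd13 and Hoxb7 followed with means between 5.39 and 8.88 CPM per kb over the 6 libraries, and the order of Hoxb6, Hoxa9, Hoxd13 and Hoxb7 among these changed from library to library. Groups 10 to 13 held 72.1%, 56.0% and 56.9% of the summed Hox level per kb in knockout libraries, against 69.6%, 74.0% and 96.8% in control libraries. Groups 1 to 4 held 2.46%, 5.20% and 3.79% in knockout libraries, against 3.22%, 2.92% and 0.888% in control libraries.

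**Figure D2:**
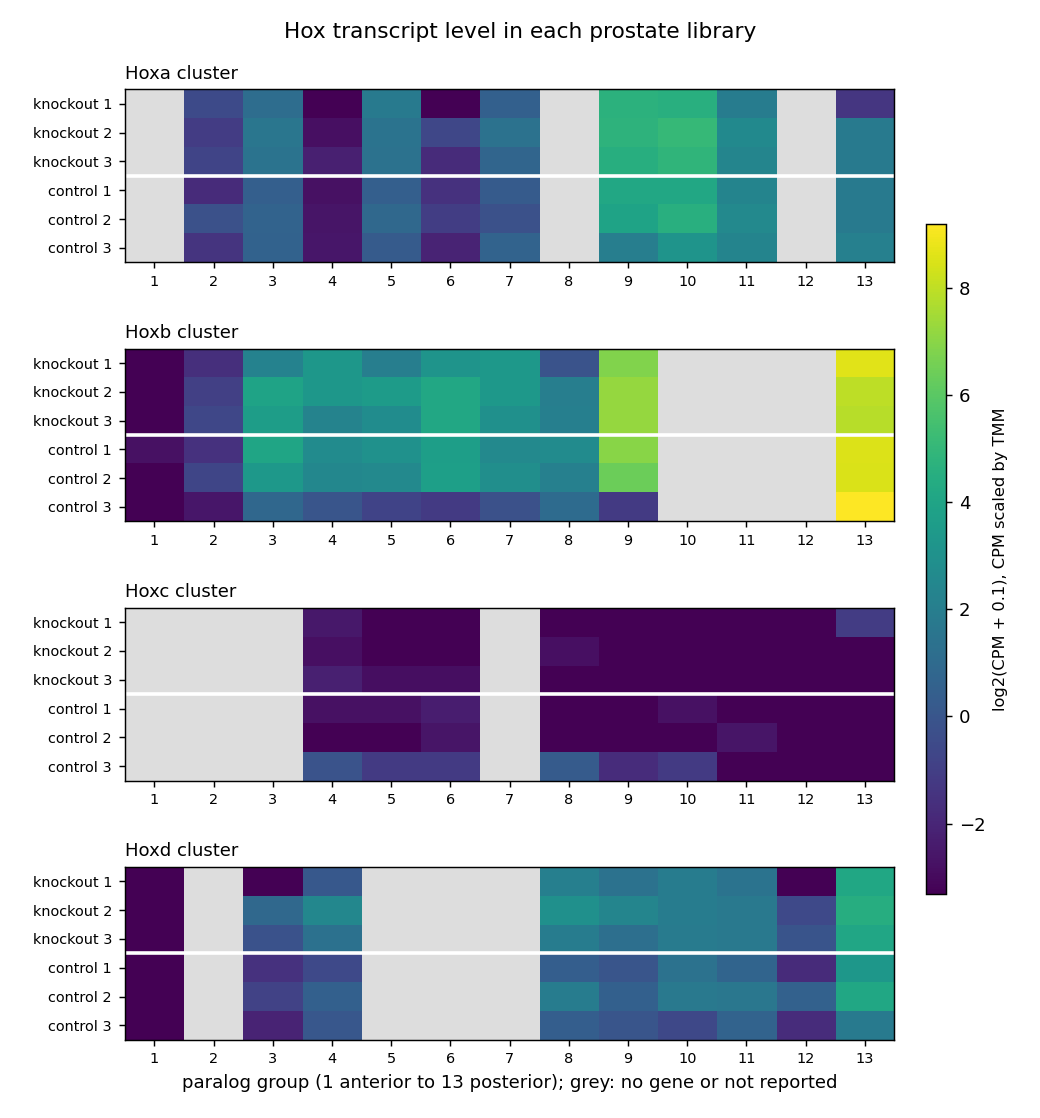
Level of Hox genes as log2(CPM + 0.1), CPM scaled by TMM, in the 3 knockout libraries (upper rows of each panel) and the 3 control libraries (lower rows), by cluster and paralog group, with grey where a cluster has no gene of that group or its value is not reported. Hoxb13 is the brightest cell of every library, and control 3 is darker than the other controls from Hoxb9 to Hoxb3. Hoxc is dark apart from a few cells, the highest being Hoxc8 at 1.09 CPM and Hoxc4 at 0.819 CPM in control 3.

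No Hox gene passed the test between genotypes. Of the 39 members, 22 passed the filter on low counts, which were 7 Hoxa, 8 Hoxb, 0 Hoxc and 7 Hoxd genes, and 0 of these 22 passed a false discovery rate of 0.05 in edgeR's test, against 5.07% of all 13762 genes tested. The smallest adjusted p was 0.0842, for Hoxd9. At an unadjusted p under 0.05 in either direction there were 5 of the 22 members, against 22.1% of all genes, so the count was near that share. All 5 were higher in knockout libraries (Hoxd9, Hoxa5, Hoxa3, Hoxd4 and Hoxd8), against 8.62% of all genes higher at that level. In either direction there were 3 of 24 tested members without control 3, 6 of 23 without knockout 1 and 10 of 25 without both. There were 2 without knockout 2, 2 without control 1 and 7 without control 2. The share of all genes at that level was not worked out for these fits. DESeq2 called 1 of the 22 members, Hoxd9 (adjusted p = 0.0136), against 11.8% of all genes. With limma-voom 0 members were called, against 668 of the 13762 genes. The median log2 fold change of the tested members was 0.78, against 0.03 over all genes, and it was 0.43 without control 3. The log2 fold change was above 0 for 17 of the 22, against 52.4% of all genes. The knockout values lay above all control values for 7 of the 22, against 14.1% of all genes. These were Hoxa3, Hoxa5, Hoxa9, Hoxa10, Hoxb7, Hoxd9 and Hoxd10. The knockout values lay below all control values for 0 of the 22, against 18.3% of all genes. In either direction the groups of 32.4% of all genes did not overlap. The count above was 12 without knockout 1 (against 20.6% of all genes), 11 without control 2 (19.9%) and 12 without knockout 1 and control 3 together (26.1%). Below all controls lay 1 member without knockout 1 (Hoxb13, against 23.2% of all genes), 1 without control 3 (Hoxb8, against 20.6%) and 2 without both (Hoxb13 and Hoxb8, against 27.1%). Hoxa13 alone lay below all controls without knockout 2, without control 1, or with all libraries scaled by library size alone. The share of all genes was not worked out for these 3 settings, so no reading is drawn from them. On simulated counts with these library sizes the test found 70.8% of genes changed 4-fold and 13.1% of genes changed 2-fold. Differences near 2-fold were thus mostly missed in that simulation. Standard errors of the log2 fold change ran from 0.29 (Hoxa11) to 1.19 (Hoxb9) among the 22 tested members. The share that the test would find at the spread of each Hox gene was not tested.

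**Figure D3:**
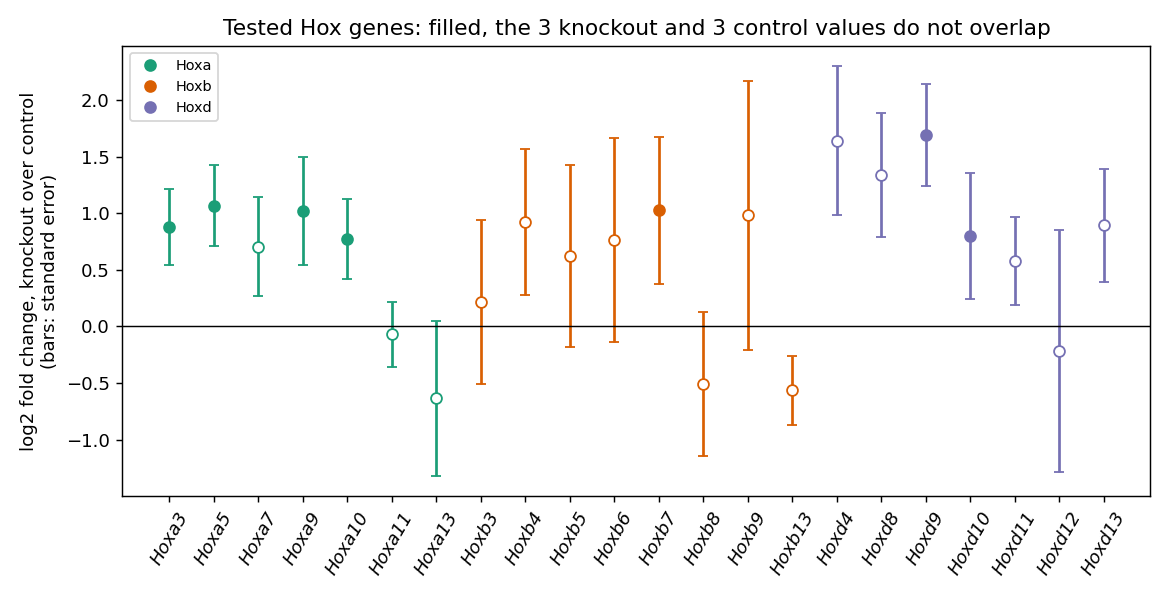
Log2 fold change, knockout over control, with its standard error for the 22 tested Hox genes, ordered by cluster and paralog group. Filled symbols mark the 7 genes whose knockout and control values do not overlap, all above 0, and the points run from Hoxa13 at -0.64 to Hoxd9 at 1.69.

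Among the group 13 genes, the most posterior of each cluster, Hoxb13 (chromosome 11, 96194316 to 96197447, plus strand, GRCm38) had 401, 244 and 232 CPM in knockout libraries and 373, 354 and 570 CPM in control libraries. The groups overlapped through knockout 1, which exceeded 2 of the controls, and the highest value was that of control 3. Knockout over control, this was a log2 fold change of -0.57 ± 0.30 (SE; edgeR adjusted p = 0.311). It was -0.32 (adjusted p = 0.60) without control 3 and -0.86 (adjusted p = 0.156) without knockout 1. Without knockout 1 the other knockouts lay below every control, and without knockout 1 and control 3 together the log2 fold change was -0.62 (adjusted p = 0.0505). None of these fits passed the threshold.

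Hoxd13 (chromosome 2, 74668310 to 74671599, plus strand) had 17.6, 21.9 and 17.0 CPM in knockout libraries and 9.80, 17.2 and 3.41 CPM in control libraries. Control 3 was lowest, and control 2 lay just above knockout 3. Its log2 fold change was 0.89 ± 0.50 (adjusted p = 0.328), and 0.48 (adjusted p = 0.456) without control 3. As a ratio that needs no scaling, Hoxd13 made up 4.22%, 8.24% and 6.82% of the summed Hoxd13 and Hoxb13 reads in knockout libraries, against 2.56%, 4.64% and 0.595% in control libraries. The share in knockout 1 lay below that in control 2, so the groups overlapped.

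Hoxa13 was nearly silent in a single library. It had 0.300, 3.40 and 3.33 CPM in knockout libraries and 3.36, 3.51 and 4.30 CPM in control libraries. The first value, that of knockout 1, rested on 4 reads and was 11.2-fold lower than the mean of the other knockouts, while these lay close to the controls. Its log2 fold change was -0.64 ± 0.68 (adjusted p = 0.603), and -0.14 (adjusted p = 0.799) without knockout 1. Within the Hoxa cluster, Hoxa13 made up 1.25% of the summed Hoxa13 and Hoxa10 reads in knockout 1 (exact 95% interval 0.341% to 3.16%), and 9.2% and 10.3% in the other knockouts, against 15.7%, 12.9% and 32.8% in control libraries. Intervals of this kind cover counting error only.

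Knockout 1 was also low for other members. Among 25 members with at least 20 reads in the other knockouts together, 5 fell below 0.25 times their mean in knockout 1, against 3.22% of 13950 genes. Beside Hoxa13 these were Hoxb8 (4.89-fold lower), Hoxd4 (4.04-fold lower), Hoxd12 (0 reads, at least 3.16-fold lower by a floor of 3 counts) and Hoxd3 (0 reads, at least 5.74-fold lower). By that floor, the fall of Hoxd12 need not reach the threshold of 0.25 times. Just outside this threshold was Hoxb3, 3.0-fold lower. Genes entered the count by their reads in the other knockouts alone, and only falls were counted. The library itself stood apart over all genes, and no test was run on the count. Evx2, the homeobox gene next to Hoxd13, had 0 reads in knockout 1, which was at least 4.02-fold lower than the other knockouts. Hottip, the long non-coding RNA beside Hoxa13, had 0.150, 1.70 and 1.22 CPM in knockout libraries, with 2 reads in the first, and 1.02, 0.957 and 1.30 CPM in control libraries. Hoxd13, at 17.6 CPM, and Hoxa9, at 26.0 CPM, were near the mean of the other knockouts in knockout 1. There Hoxa11 was 1.48-fold and Hoxa10 1.31-fold lower than that mean, and Hoxb13 was higher, at 401 CPM. Knockout 1 was the library with 416 CPM of the hepatocyte gene Alb, against 1.45 and 4.98 CPM in the other knockouts and 0.244 to 6.35 CPM in control libraries, and the part of this in its Hox values was not tested.

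Upstream sequence is shown for Hoxa13 and Hoxb8, which were low in knockout 1, and for Hoxa5, the member with the smallest p among those that did not overlap between genotypes after Hoxd9. Each run is the 250 bases before the annotated start, on the strand of the gene (RefSeq, GRCm38.p6), with capitals for matches on either strand to a TATA box (TATAAA), to a CCAAT box (those letters), to a GC box (GGGCGG) or to the core of a caudal-type homeodomain site (TTTATG).
Hoxa13, chr6:52260881-52261130, minus strand: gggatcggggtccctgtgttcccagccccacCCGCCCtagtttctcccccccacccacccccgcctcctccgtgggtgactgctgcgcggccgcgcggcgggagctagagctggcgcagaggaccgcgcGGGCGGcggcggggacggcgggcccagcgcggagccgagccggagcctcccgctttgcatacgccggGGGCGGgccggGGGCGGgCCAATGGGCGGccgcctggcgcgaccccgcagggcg
Hoxb8, chr11:96281655-96281904, plus strand: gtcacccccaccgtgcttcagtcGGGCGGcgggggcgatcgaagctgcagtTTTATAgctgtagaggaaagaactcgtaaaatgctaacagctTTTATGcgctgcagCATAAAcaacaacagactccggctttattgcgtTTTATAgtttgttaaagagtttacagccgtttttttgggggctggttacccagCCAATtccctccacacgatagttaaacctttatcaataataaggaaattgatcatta
Hoxa5, chr6:52204588-52204837, minus strand: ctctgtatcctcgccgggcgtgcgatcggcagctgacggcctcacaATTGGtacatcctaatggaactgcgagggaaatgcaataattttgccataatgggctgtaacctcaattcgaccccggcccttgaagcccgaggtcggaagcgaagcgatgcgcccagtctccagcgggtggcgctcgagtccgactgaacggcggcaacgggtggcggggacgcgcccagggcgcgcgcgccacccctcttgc
No matches share a base in these windows. The Hoxa13 window held 5 GC boxes and 1 CCAAT box at 80.0% GC. The Hoxb8 window held 2 TATA matches, 2 caudal-type matches, 1 CCAAT box and 1 GC box at 44.4% GC, and the Hoxa5 window held 1 CCAAT box. Windows were found for 22 of the 39 members, 24 in all. A CCAAT box was in 58.3% of these, against 33.8% of all 32851 promoter windows of that length. A GC box was in 41.7%, against 32.7% of all windows, a caudal-type match in 20.8%, against 10.8%, and a TATA box in 16.7%, against 12.4%. A match is a description of letters, not a binding site.

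Hoxb9, Hoxb7, Hoxb6, Hoxb5, Hoxb4 and Hoxb3 were all lowest in control 3, where Hoxb9 was nearly absent. Hoxb9 (chromosome 11, 96271457 to 96276595, plus strand), which acts with its group 9 paralogs in mouse mammary gland and limb development, had 114, 147 and 151 CPM in knockout libraries and 124, 84.3 and 0.341 CPM in control libraries. The last value rested on 5 reads and was 305-fold lower than the mean of the other controls. With its large spread the log2 fold change was 0.98 ± 1.19 (adjusted p = 0.650) with all libraries and 0.40 (adjusted p = 0.458) without control 3. Of the summed Hoxb9 and Hoxb13 reads, Hoxb9 made up 22.1%, 37.6% and 39.4% in knockout libraries, against 24.9%, 19.2% and 0.0599% in control libraries, the last with an exact 95% interval of 0.0194% to 0.140%. Hoxb13 and Hoxb9 are neighbours in the cluster, and in control 3 the first was the highest of all libraries while the second was the lowest.

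Hoxb6 had 8.86, 18.0 and 17.9 CPM in knockout libraries and 12.7, 13.3 and 0.341 CPM in control libraries. Hoxb5 had 4.05, 11.4 and 6.81 CPM in knockout libraries and 8.09, 5.87 and 0.478 CPM in control libraries. Hoxb7 had 10.3, 10 and 7.73 CPM in knockout libraries and 5.75, 7.21 and 0.751 CPM in control libraries. In all 3 genes control 3 was lowest, and Hoxb7 alone of them did not overlap between genotypes. Hoxb4, a gene known for its part in blood stem cell growth, had 9.83, 9.86 and 4.71 CPM in knockout libraries and 6.39, 5.49 and 0.887 CPM in control libraries. Hoxb3 had 4.65, 15.4 and 12.6 CPM in knockout libraries and 16.1, 10.3 and 1.71 CPM in control libraries. Their log2 fold changes were 0.76 ± 0.90 for Hoxb6, 0.62 ± 0.80 for Hoxb5, 1.02 ± 0.65 for Hoxb7, 0.92 ± 0.64 for Hoxb4 and 0.22 ± 0.73 for Hoxb3, with adjusted p between 0.381 and 0.880. Without control 3 the values were 0.21 for Hoxb6, 0.097 for Hoxb5, 0.53 for Hoxb7, 0.45 for Hoxb4 and -0.27 for Hoxb3. Hoxb8 was lowest in knockout 1, at 0.826, 3.98 and 4.10 CPM in knockout libraries and 6.58, 4.21 and 1.98 CPM in control libraries (log2 fold change -0.51 ± 0.64, adjusted p = 0.662). Without knockout 1 its log2 fold change was -0.084, and without control 3 it was -0.84.

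**Figure D4:**
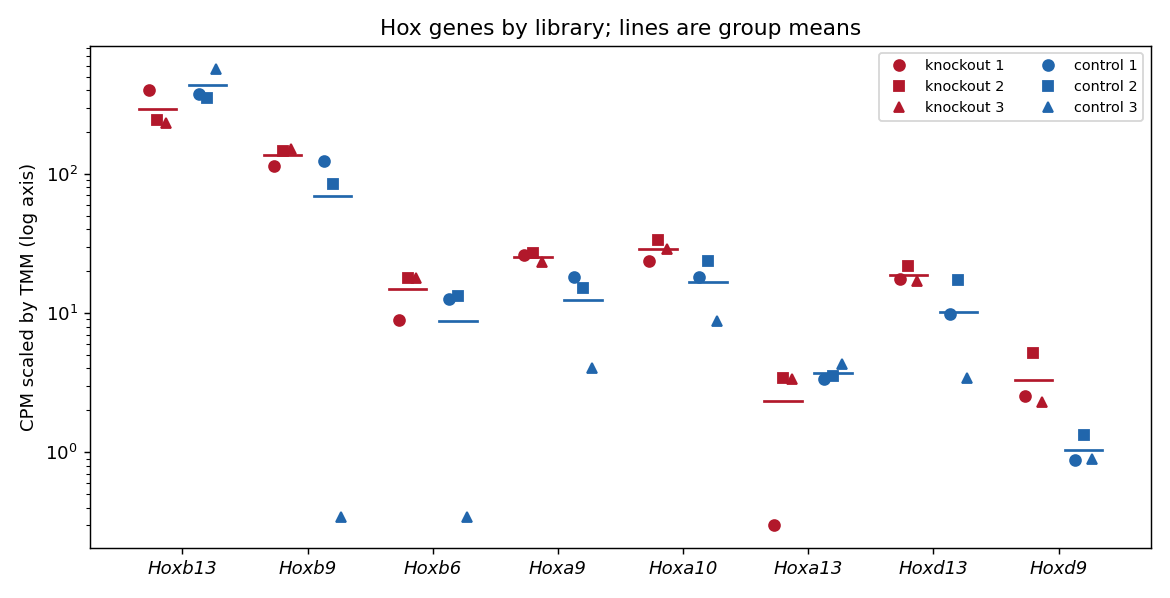
CPM scaled by TMM (log axis) of 8 Hox genes in each knockout (red) and control (blue) library, with lines for the group means. Knockout 1 drops to 0.300 CPM for Hoxa13, and control 3 drops to 0.341 CPM for Hoxb9 and Hoxb6 while it is highest for Hoxb13.

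Reads at the Mir196a-1 locus were, like those of Hoxb9, nearly absent from control 3, with 5.63, 10.9 and 12.6 CPM in knockout libraries and 8.82, 13.1 and 0.137 CPM in control libraries, the last from 2 reads. The log2 fold change was 0.40 (adjusted p = 0.833), and -0.16 without control 3. At the Mir196b locus in the Hoxa cluster there were 4, 15 and 19 reads in knockout libraries and 2, 5 and 0 reads in control libraries. Control 3 was again the library with fewest reads at both loci.

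Outside the Hoxb block, control 3 was low for some members and not for others. Of 22 members with at least 20 reads in the other controls together, 8 fell below 0.25 times their mean in control 3, against 3.47% of 13587 genes. They were Hoxb9, Hoxb6 (38.1-fold lower), Hoxb5 (14.6-fold), Hoxb7 (8.63-fold), Hoxb3 (7.72-fold), Hoxb4 (6.69-fold), Hoxd10 (5.24-fold) and Hoxa9 (4.15-fold), with Hoxd13 just outside at 3.96-fold. Genes entered this count by their reads in the other controls alone, and only falls were counted. Members with more reads in control 3 than in the other controls, such as Hoxc8 and Hoxc4, could not enter. Control 3 itself stood apart over all genes, and no test was run on the count. Hoxa11 in control 3 differed from the mean of the other controls by -0.13 on the log2 scale, Hoxa3 by 0.07, Hoxa13 by 0.32, Hoxb13 by 0.65 and Hoxa7 by 0.67. The summed level of the 9 Hoxb genes other than Hoxb13 was 152, 216 and 205 CPM in knockout libraries and 180, 131 and 6.55 CPM in control libraries. Control 3 was also the library with 696 CPM of anterior, dorsal or lateral-type secretory genes and 166198 CPM of ventral-type genes. The part of these tissue differences in the Hoxb values was not tested.

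**Figure D5:**
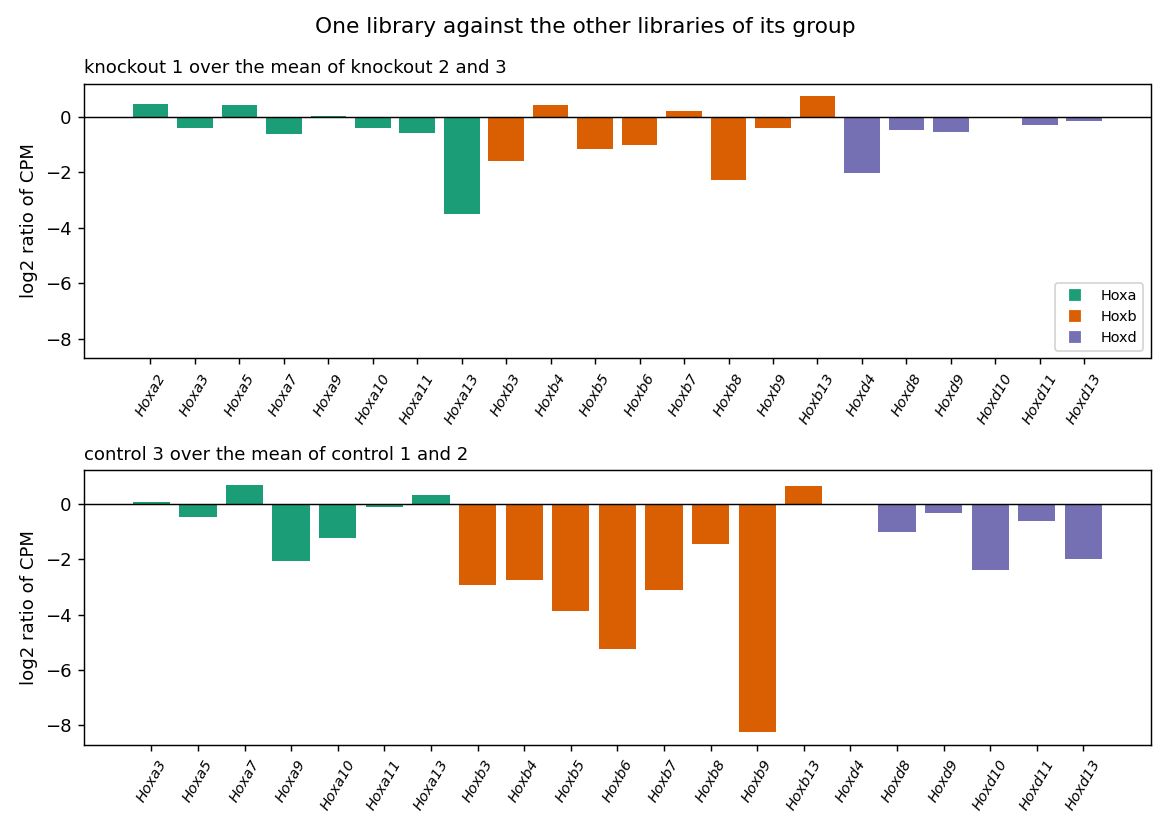
Log2 ratio of CPM for knockout 1 over the mean of knockout 2 and 3 (upper panel) and control 3 over the mean of control 1 and 2 (lower panel), for Hox genes with more than 3 reads in the single library and at least 20 in the other pair. Hoxa13 is the deepest bar for knockout 1, 11.2-fold lower, and Hoxb9 for control 3, 305-fold lower.

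Hoxa10 and Hoxa9 carried most of the reads of the Hoxa cluster. Hoxa10 (chromosome 6, 52231197 to 52240854, minus strand), needed in mice for uterine function and testis descent, had 23.8, 33.5 and 28.9 CPM in knockout libraries and 18.1, 23.6 and 8.81 CPM in control libraries. The lowest knockout value lay just above the highest control value, and the groups overlapped with library size alone or with no count filter. For Hoxa10 the log2 fold change was 0.77 ± 0.35 (adjusted p = 0.247), and 0.47 without control 3. Hoxa9 had 26.0, 27.1 and 23.2 CPM in knockout libraries and 18.2, 15.2 and 4.03 CPM in control libraries, with no overlap. Its log2 fold change was 1.02 ± 0.48 (adjusted p = 0.260), and 0.60 (adjusted p = 0.203) without control 3. Hoxa11, a gene of kidney, limb and reproductive tract development, had 3.75, 6.05 and 5.09 CPM in knockout libraries and 4.97, 5.80 and 4.92 CPM in control libraries (log2 fold change -0.07 ± 0.29, adjusted p = 0.904). Its range over the 6 libraries was narrower than those of Hoxa9, Hoxa10 and Hoxa13. The antisense transcript Hoxa11os had 29.3, 48.9 and 45.5 CPM in knockout libraries and 39, 50.5 and 43.6 CPM in control libraries (log2 fold change -0.10, adjusted p = 0.814). How strands were counted is not given in the sources used here. Reads of overlapping antisense partners cannot be told apart with certainty.

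The lower-numbered Hoxa genes were near 1 to 4 CPM. Hoxa5, which acts in mouse lung and mammary gland development, had 3.53, 2.65 and 2.56 CPM in knockout libraries and 1.27, 1.79 and 1.09 CPM in control libraries. Hoxa3, a gene of thymus and parathyroid formation, had 2.10, 2.90 and 2.64 CPM in knockout libraries and 1.27, 1.47 and 1.43 CPM in control libraries. Neither gene overlapped between genotypes, and control 3 did not stand apart in either. Their log2 fold changes were 1.07 ± 0.36 (unadjusted p = 0.0193, adjusted p = 0.149) for Hoxa5 and 0.88 ± 0.33 (adjusted p = 0.186) for Hoxa3 in edgeR's test. Hoxa7 had 1.35, 2.57 and 1.57 CPM in knockout libraries and 1.12, 0.765 and 1.5 CPM in control libraries, with overlap (log2 fold change 0.70 ± 0.44, adjusted p = 0.373). The summed Hoxa level was 61.4, 79.2 and 68.3 CPM in knockout libraries and 48.8, 53.4 and 26.6 CPM in control libraries.

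The Hoxd genes gave the largest fold change of any member. Hoxd9 (chromosome 2, 74697727 to 74700208, plus strand) had 2.55, 5.14 and 2.30 CPM in knockout libraries and 0.878, 1.34 and 0.887 CPM in control libraries. The means were 3.33 ± 1.57 CPM in knockout and 1.03 ± 0.264 CPM in control libraries (SD, n = 3 each), and all knockout values lay above all controls. Its log2 fold change was 1.69 ± 0.45 (edgeR adjusted p = 0.0842), and over the alternatives tried the adjusted p lay between 0.0136 (DESeq2) and 0.255. Control 3 did not stand apart for Hoxd9, and without it the log2 fold change was 1.60 (adjusted p = 0.172). Hoxd8 had 4.13, 7.79 and 3.67 CPM in knockout libraries and 1.22, 3.76 and 1.23 CPM in control libraries (log2 fold change 1.33 ± 0.55, adjusted p = 0.209). Hoxd4 had 0.976, 5.47 and 2.41 CPM in knockout libraries and 0.585, 1.34 and 0.956 CPM in control libraries (log2 fold change 1.64 ± 0.66, adjusted p = 0.201), and its exons share bases with Hoxd3, so reads may be split between them. Both overlapped between genotypes, through control 2.

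Of the remaining Hoxd genes, Hoxd10 had 3.68, 3.73 and 3.56 CPM in knockout libraries and 2.54, 3.19 and 0.546 CPM in control libraries. The groups did not overlap, and the knockout libraries lay within 0.2 CPM of each other. The log2 fold change was 0.80 ± 0.56 (adjusted p = 0.423), and 0.36 without control 3. Hoxd11, a partner of Hoxa11 in limb and kidney development, had 2.63, 3.19 and 3.29 CPM in knockout libraries and 1.56, 3.06 and 1.5 CPM in control libraries (log2 fold change 0.58 ± 0.39, adjusted p = 0.406). Hoxd12 stayed at or below 0.842 CPM in knockout libraries and 1.40 CPM in control libraries, at the edge of the filter (log2 fold change -0.22 ± 1.07, adjusted p = 0.918). The summed Hoxd level was 31.6, 49.6 and 33.8 CPM in knockout libraries and 17.0, 31.8 and 8.87 CPM in control libraries, with knockout 1 just below control 2.

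The Hoxc cluster was close to silent, and most of its reads came from control 3. Over 9 genes there were 6, 2 and 5 reads in knockout libraries and 5, 2 and 46 reads in control libraries. Of the 46 reads, 16 were on Hoxc8, 12 on Hoxc4, 5 each on Hoxc10, Hoxc6 and Hoxc5, and 3 on Hoxc9. The untested Hoxc6 had 0, 0 and 0.0383 CPM in knockout libraries and 0.0975, 0.0638 and 0.341 CPM in control libraries. Its groups did not overlap, but these values rest on 0, 0 and 1 reads against 2, 1 and 5. Hoxc10 and Hoxc5 share 166 exon bases, so the same reads may be counted on either. Hoxc13 had 5 reads in knockout 1 and 0 in every other library, and Hoxc12 had 0 reads in all libraries. The summed Hoxc level was 0.450, 0.0828 and 0.191 CPM in knockout libraries and 0.244, 0.128 and 3.14 CPM in control libraries. Control 3 was the library with 971 CPM of adipocyte genes. Adipoq, the adipocyte hormone gene, had 0.0751, 0.0414 and 3.90 CPM in knockout libraries and 2.93, 1.28 and 108 CPM in control libraries. The part of the adipocyte genes in the Hoxc values was not tested. The other untested members included Hoxa2, Hoxa4, Hoxa6, Hoxb1, Hoxb2, Hoxd1 and Hoxd3. The highest value of any of the 17 untested members in any library was 1.78 CPM, for Hoxd3 in knockout 2, and Hoxd1 had 0 reads in all libraries.

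Hox proteins bind DNA with TALE homeodomain partners, the Pbx, Meis and Pknox proteins. Of 10 tested TALE genes, 0 rose and 1 fell past the threshold, against 0.414% of all genes higher and 4.66% lower, and the median log2 fold change of the 10 was 0.01. The gene that fell was Pknox2, with 8.18, 7.58 and 8.0 CPM in knockout libraries and 32.1, 21.6 and 72.0 CPM in control libraries (log2 fold change -2.40 ± 0.43, adjusted p = 0.0213). The call was lost without knockout 1 (adjusted p = 0.0787), knockout 2 (0.0988) or knockout 3 (0.0897). Meis3 had 2.48, 3.52 and 2.53 CPM in knockout libraries and 8.68, 5.61 and 15.2 CPM in control libraries (log2 fold change -1.78 ± 0.41, adjusted p = 0.0521), with no overlap. DESeq2 called Pknox2 and Meis3. The other cofactors named here did not pass. Meis1 had a log2 fold change of -0.51 (adjusted p = 0.190), Meis2 of 0.40 (adjusted p = 0.393) and Pbx3 of 1.00 (adjusted p = 0.145).

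Polycomb proteins keep Hox genes silent and trithorax proteins keep them active. Of 19 Polycomb genes 0 passed the threshold in edgeR's test, 4 had an unadjusted p under 0.05, against 22.1% of all genes, and limma-voom called 0. DESeq2 called 2 of the 19, Suz12 and Jarid2, against 11.8% of all genes, so both counts were near the share over all genes. Jarid2, a cofactor of the H3K27 methyltransferase complex, had a log2 fold change of -0.78 (adjusted p = 0.0658), Suz12, a core subunit, of -0.59 (adjusted p = 0.0869) and Phc1 of -0.69 (adjusted p = 0.155). Of 11 trithorax and H3K27 demethylase genes 0 passed in edgeR, DESeq2 or limma-voom. In edgeR's test 1 of the 11 had an unadjusted p under 0.05, against 22.1% of all genes. Kmt2c had a log2 fold change of -0.46 (adjusted p = 0.202), Kmt2a, the mammalian trithorax homolog, of 0.41 (adjusted p = 0.247) and Dpy30 of 0.52 (adjusted p = 0.313). The median log2 fold changes were -0.08 for Polycomb and 0.01 for trithorax genes. Of 10 caudal, ParaHox and cluster-flanking homeobox genes, 6 had 0 reads in all libraries and only Evx2 was tested (log2 fold change 0.16, adjusted p = 0.938). Of 15 non-coding genes of the clusters, 3 were tested, Hoxa11os, Mir196a-1 and Hottip (log2 fold change -0.04, adjusted p = 0.978), and 0 passed in edgeR, DESeq2 or limma-voom, with 0 at an unadjusted p under 0.05.

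Of 16 tested urogenital and mesenchymal patterning factors, 0 rose and 3 fell in edgeR's test, against 0.414% of all genes higher and 4.66% lower. Among the 3 were Six2 and Tbx5, and the median log2 fold change of the 16 was 0.60. Six2, which maintains kidney progenitors in mice, had 1 read over the knockout libraries and 75 over the control libraries, so that its level in control libraries was 93.8-fold that in knockout libraries, with an exact 95% counting interval of 16.3 to 3754 (adjusted p = 0.00546). Tbx5, a limb and heart patterning gene, had 1 read over the knockout libraries and 76 over the control libraries, a ratio of 95.1 with an interval of 16.6 to 3804 (adjusted p = 0.0120). The Tbx5 call was lost without knockout 2 (adjusted p = 0.0676) or knockout 3 (0.0675). For both genes the knockout libraries lay below every control library, control 3 included.

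Among 13 prostate and luminal transcription factors, 0 rose and 2 fell in edgeR's test, against 0.414% of all genes higher and 4.66% lower. The median log2 fold change of the 13 was -0.40. Klf5, an epithelial zinc finger factor, had 1.28, 0.787 and 0.498 CPM in knockout libraries and 13.8, 13.6 and 18.4 CPM in control libraries (log2 fold change -4.20 ± 0.39, adjusted p = 0.00181). Creb3l4, a membrane-bound factor enriched in human prostate, had 2.70, 2.65 and 2.99 CPM in knockout libraries and 17.7, 15.4 and 14.5 CPM in control libraries (log2 fold change -2.51 ± 0.23, adjusted p = 0.00170). Both calls were kept without each library in turn. Without control 3 and knockout 1 together, 7 of the 13 were called in either direction, against 8.76% of all genes in that fit, among them Sox9, Gata2, Gata3, Klf5, Elf3 and Creb3l4. Elf3 had a log2 fold change of -0.88 (adjusted p = 0.0898) and the pioneer factor Foxa1 of -0.49 (adjusted p = 0.288). Klf5, Creb3l4, Six2 and Tbx5 fell alongside the ventral-type secretory genes, all 5 of which fell past the threshold, and the part of these in their falls was not tested. Of the 5, Msmb was near the threshold (adjusted p = 0.0461), and its call was lost with upper-quartile factors (adjusted p = 0.0511), with limma-voom (0.401), without knockout 1 and control 3 together (0.0519) and without any 1 library other than control 1 (adjusted p from 0.0676 to 0.168).

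Of 19 tested signals that Hox genes regulate or that pattern the same tissues, 0 rose and 1 fell in edgeR's test. Over all genes 0.414% were higher and 4.66% lower, so the count was near that share. The median log2 fold change of the 19 was 0.25. Aldh1a1, which makes retinoic acid, a regulator of Hox genes, had 77.9, 67.9 and 60.5 CPM in knockout libraries and 247, 213.3 and 595 CPM in control libraries (log2 fold change -2.36 ± 0.41, adjusted p = 0.0185). The call was lost without knockout 1 (adjusted p = 0.0644), knockout 2 (0.0899) or knockout 3 (0.0879). Aldh1a2, which makes it in embryos, had 16.7, 3.35 and 20.4 CPM in knockout libraries and 0.341, 4.66 and 2.46 CPM in control libraries (log2 fold change 2.45 ± 0.91, adjusted p = 0.179), with overlap through knockout 2. DESeq2 called it higher (adjusted p = 0.0256). Wnt5a, a signal of prostate mesenchyme, had a log2 fold change of 0.65 (adjusted p = 0.202).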

How the data were processed

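Polyadenylated RNA of 6 prostate tissue samples was made into strand-preserving libraries and sequenced single-end, per the labels' protocols. STAR, DESeq2 and mm10 are named, without versions or roles, in the submitters' processing notes. Not given in the sources used here are the counting program, its annotation and its strand setting. The authors deposited whole-number read counts per gene symbol with no normalization, and 0 sample columns were left unmapped. Groups follow the genotype label.

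Counts were tested with edgeR 4.0.16 in R 4.3.3 (expression filter with a minimum count of 10, TMM scaling, quasi-likelihood F test), with Benjamini-Hochberg adjustment over 13762 genes and a threshold of 0.05. DESeq2 1.42.0 and limma 3.58.1 (voom) were alternatives, with other scalings, filters and thresholds and each library left out. Standard errors were derived from the F statistic. Levels between genes used the longest transcript of GENCODE M21, which matched 39 members. A pair was checked for duplication by a chi-square per gene, 52.4 to 966. The test was checked on simulated data with 13723 genes, where 7 of 88 calls were false. The median log2 fold change of all genes was 0.03, and -0.10 with library size alone. Named genes are members with a mean of at least 1 CPM or no overlap, up to 3 members of each list with the smallest p, and a few fixed cofactors. Genes and lists were chosen with earlier results of these data known. Some members of the lists are not reported here.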

Additional observations from a re-analysis of the deposited data

How the results depend on the processing

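The all-gene count of 698 was 1618 with DESeq2, 1229 without control 3 and knockout 1 together, 246 at a threshold of 0.01 and 1190 at 0.10, and 255 (without knockout 2) to 551 (without control 3) with 1 library left out. The Hox count of 0 was 1 with DESeq2 and 1 at a threshold of 0.10, Hoxd9 both times, and 0 in every fit with 1 library left out. The 7 calls in the gene lists beside the Hox genes were 14 with DESeq2, 14 without both libraries, 4 at 0.01, 11 at 0.10 and 4 to 8 with 1 library left out. The 7 Hox genes with knockout values above all controls were 12 without both libraries and 7 to 12 with 1 left out. With all libraries, they were 9 with upper-quartile factors, 6 with library size alone and 6 with no count filter. The log2 ratio of summed Hoxc levels, -2.28, lay between -3.09 and 0.38, the last without control 3. Of 328 fold changes of tested members under alternatives, 7 were reversed and 1 passed the threshold anew. With 1 library left out, Hoxb3 ran from -0.27 to 0.86, Hoxd12 from -0.68 to 1.30, Hoxa11 from -0.24 to 0.092, Evx2 from -0.64 to 0.95, Hoxa11os from -0.24 to 0.093, Mir196a-1 from -0.16 to 1.10 and Hottip from -0.58 to 0.42. Without both libraries Hoxa11 was at 0.05, Hoxa11os at 0.08 and Hottip at 0.55. Evx2 was -0.30 with limma-voom, and Hottip was 0.0115 with upper-quartile factors. The cause of these changes was not tested. No paired analysis was possible because the labels give no replicate numbers shared between the genotypes. Depth set a floor of 3 counts, 0.115 to 0.225 CPM.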

Other observations

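Transcription factors other than Hox genes were also low in control 3. These genes were chosen after their values were seen, and no test was run on the single library. Gata2 had 307, 401 and 415 CPM in knockout libraries and 227, 202 and 7.78 CPM in control libraries. Tbx2 had 49.5, 52.6 and 65.0 CPM in knockout libraries and 27.2, 32.8 and 5.46 CPM in control libraries. Hand2, a mesenchymal factor, had 4.28, 4.22 and 3.83 CPM in knockout libraries and 1.66, 1.79 and 0 CPM in control libraries. Gata3 had 925, 590 and 505 CPM in knockout libraries and 345, 252 and 64.9 CPM in control libraries. In all 4 genes the knockout values lay above all controls, and with all libraries none of them passed the threshold between genotypes in edgeR's test (adjusted p from 0.161 to 0.405). DESeq2 called Gata3, and edgeR called Gata2, Tbx2 and Gata3 without control 3 and knockout 1 together.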
